A study of Homo sapiens with 6 samples.

Results

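The metallothionein genes MT1E, MT1F, MT1G, MT1M, MT1X and MT2A, together with MTF1 and SLC30A1, were taken as 8 rows of a count table of 27469 genes with values, matched by gene symbol. All 8 were in the table, and the match used no measured value, although the genes were picked with earlier results of these libraries known. The libraries came from HMC3, an immortalised line of human microglia: 3 were of cells given interleukin-33 (IL-33) for 24 h and 3 were of Control cells. No dose of IL-33, and no agent given to the Control cells, is named in the sources used here. RNA was read by 3′ tag sequencing, in which each polyadenylated transcript gives a tag near its 3′ end. Levels are given as CPM, the count brought to a common library total with TMM, a correction for composition. They are not divided by transcript length, since a transcript gives a tag near its end whatever its length, and levels of different genes are set side by side on that scale.

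Metallothioneins are small proteins rich in cysteine that hold zinc and copper and can bind cadmium. Their transcription is switched on by metal through MTF1, a zinc-finger factor that binds short promoter elements called metal response elements when zinc is plentiful. Glucocorticoids and cytokines of the interleukin-6 type are also known to raise metallothionein transcripts. SLC30A1 encodes ZnT1, the zinc exporter of the plasma membrane, whose gene MTF1 also controls. In the brain, metallothioneins I and II are known mainly from astrocytes and from reactive glia, and MT3 from neurons and astrocytes.

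The promoters below are shown because they hold the letters through which MTF1 is known to act. They are the 250 bases before the transcription start, from a RefSeq table (GRCh38.p14) in which 4 of the 8 members were matched, namely MT2A, MT1X, MTF1 and SLC30A1. Capitals mark TGCACNC or TGCGCNC, the core letters of the metal response element, searched on both strands. MT2A (chr16:56608334-56608583, plus strand) and MT1X (chr16:56682220-56682469, plus strand) are members, and MT1H (chr16:56669564-56669813, plus strand) is a neighbour in the same gene cluster that had 0 counts in all 6 libraries.
MT2A: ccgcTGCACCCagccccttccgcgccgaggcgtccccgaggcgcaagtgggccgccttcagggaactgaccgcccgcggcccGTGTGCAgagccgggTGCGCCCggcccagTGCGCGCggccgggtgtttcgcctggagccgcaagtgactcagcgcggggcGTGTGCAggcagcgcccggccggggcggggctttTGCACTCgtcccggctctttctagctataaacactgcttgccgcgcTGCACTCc
MT1X: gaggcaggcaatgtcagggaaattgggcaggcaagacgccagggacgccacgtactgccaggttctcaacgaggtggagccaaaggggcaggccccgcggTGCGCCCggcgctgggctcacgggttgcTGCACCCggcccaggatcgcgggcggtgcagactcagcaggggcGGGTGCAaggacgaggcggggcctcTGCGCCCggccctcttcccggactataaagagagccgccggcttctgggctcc
MT1H: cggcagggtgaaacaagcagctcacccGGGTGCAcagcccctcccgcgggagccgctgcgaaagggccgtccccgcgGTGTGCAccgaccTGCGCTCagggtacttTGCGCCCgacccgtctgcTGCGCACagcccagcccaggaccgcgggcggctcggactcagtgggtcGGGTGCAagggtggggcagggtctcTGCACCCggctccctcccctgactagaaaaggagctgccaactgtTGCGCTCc

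The MT2A window held 7 matches, of which 5 read on the gene's own strand, and their first bases lay 246, 168, 153, 139, 88, 54 and 8 bases before the start. The MT1X window held 4, at 150, 122, 78 and 53 bases. Of 35116 RefSeq promoters searched in the same way, 24.8% held at least 1 match, 0.37% held 4 or more and 0.0313% held 7 or more. The SLC30A1 window (chr1:211579162-211579411, minus strand) held 1 match, 49 bases before the start, and that of MTF1 held 0. The windows follow the RefSeq starts, which differ from the ends of the GENCODE genes given below: the SLC30A1 window lies upstream of the GENCODE gene without touching it, the MT2A window lies wholly inside the GENCODE gene and the MT1X window partly so. MT1H held 8 matches and MT1B, a further neighbour with 0 counts, held 3. A match in these windows describes letters and does not show that MTF1 was bound.

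Library totals ran from 8294747 to 10217529 counts with IL-33 and from 5739947 to 9933395 in Control. Control 3 had the lowest total and stood apart on the first principal component, at 54.96 against -18.04 to 0.86 in the other 5 libraries, so members and gene lists are also given without it. The labels do not state whether each library had its own culture, and the p-values then describe the spread of these 6 libraries alone, part of which may be technical. Defining markers of microglia were absent: P2RY12, TMEM119, CX3CR1, SPI1, ITGAM and TYROBP had 0 counts in all libraries, and 10 microglia and macrophage markers together summed to 2.004 to 4.88 CPM with IL-33 and 3.18 to 4.33 CPM in Control. The 8 fibroblast and mesenchymal markers summed to 5836 to 6407 CPM with IL-33 and 5588 to 6617 CPM in Control. Among these 8, COL3A1 had 0 counts in all libraries, so the sum was not spread over every marker. The 6 astrocyte markers summed to 0.879 to 3.62 CPM with IL-33 and 1.92 to 2.68 CPM in Control, with AQP4 at 0 in all. The 4 neuronal markers summed to 28.8 to 38.0 CPM with IL-33 and 23.7 to 33.3 CPM in Control, and the 4 endothelial markers to 0 to 1.71 CPM with IL-33 and 0 to 0.362 CPM in Control. In libraries made from many cells, fewer cells with a transcript and less of it per cell cannot be told apart.

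Because the genes of this family are alike in sequence, the last 300 bases of each gene's transcript (GENCODE release 29) were searched for stretches that also occur, letter for letter, in a transcript of another gene. In stretches of 75 bases, 0% were shared for MT2A, MT1E and MT1F, 0.44% for MT1M, 9.73% for MT1G and 11.95% for MT1X. In stretches of 50 bases, the shares were 14.3% for MT2A, 11.95% for MT1E, 9.16% for MT1F, 19.1% for MT1M, 28.7% for MT1G and 30.7% for MT1X. MT1X and MT1G shared most with each other, 22 stretches of 75 bases. MTF1 and SLC30A1 shared 0 at either length. The sources used here give neither the read length nor what was done with reads that map to several genes, so the counts of MT1X and MT1G in particular may be split or lost, and their values are uncertain.

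MT2A dominated the family. MT2A (ENSG00000125148; GRCh38, chromosome 16, 56608199 to 56609497, plus strand) encodes metallothionein-2, the most widely expressed form in human tissues. It measured 1895, 1887 and 2085 CPM with IL-33, against 2031, 1865 and 2182 CPM in Control. The values of the groups overlapped, with Control 2 the lowest library of all and Control 3 the highest. With 102821 counts in all, MT2A took 0.198% of all counts in the table and ranked 56 among all genes by its mean level. Its level averaged 1956 ± 112 CPM with IL-33 and 2026 ± 159 CPM in Control (SD, n = 3 each). The log2 fold change was -0.05 ± 0.09 (SE), with a 95% interval from -0.25 to 0.14, and 0.0045 without Control 3.

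MT1E (ENSG00000169715; chromosome 16, 56625475 to 56627112, plus strand), a metallothionein-1 gene, was next in level. It measured 629, 688 and 754 CPM with IL-33, against 681, 754 and 476 CPM in Control. Control 3 was the lowest library, the other 5 were close together, and all IL-33 values fell between Control 3 and Control 2. The mean was 690 ± 62.1 CPM with IL-33 and 637 ± 144 CPM in Control (SD, n = 3 each), a log2 fold change of 0.12 ± 0.14 (SE) with a 95% interval from -0.19 to 0.42. Without Control 3 the log2 fold change was -0.06, so the direction of MT1E rested on that library.

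MT1F and MT1X, also of the metallothionein-1 group, were far lower. MT1F (ENSG00000198417; chromosome 16, 56657694 to 56660698, plus strand) measured 32.6, 35.2 and 49.2 CPM with IL-33, against 40.0, 39.4 and 34.9 CPM in Control. IL-33 3 was the highest library and IL-33 1 the lowest, so the Control values lay inside the IL-33 range. Its log2 fold change was 0.03 ± 0.18 (SE; 95% interval -0.34 to 0.39), and it was -0.17 without IL-33 3 and -0.03 without Control 3.

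MT1X (ENSG00000187193; chromosome 16, 56682424 to 56684196, plus strand) measured 13.96, 21.0 and 25.8 CPM with IL-33, against 18.2, 22.0 and 19.5 CPM in Control. Again IL-33 1 was the lowest and IL-33 3 the highest library, with all Control values between them. The log2 fold change was 0.02 ± 0.23 (SE; 95% interval -0.46 to 0.51), with -0.19 without IL-33 3 and 0.01 without Control 3. The annotation of MT1X overlaps AC026461.1 on the same strand, which has no row under that name in the table.

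MT1G and MT1M were at the limit of detection and did not pass the filter on low counts. MT1G (ENSG00000125144; chromosome 16, 56666731 to 56668065, minus strand) had 13, 4 and 7 counts with IL-33, against 8, 2 and 2 counts in Control. Over the pooled group totals, without TMM, this was 0.855 CPM with IL-33 (exact Poisson 95% interval 0.548 to 1.27) and 0.502 CPM in Control (0.259 to 0.876). The intervals overlapped. These intervals cover counting error only. They may be too narrow even for that, since PCR reads without molecular identifiers are not independent molecules.

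MT1M (ENSG00000205364; chromosome 16, 56632233 to 56633986, plus strand) had 0 counts in all 3 IL-33 libraries, and 12, 0 and 0 counts in Control. All of its counts thus came from Control 1. The IL-33 total of 0 allows up to 0.107 CPM over the group, at 3 counts and without TMM. Controls 2 and 3 allow up to 0.361 and 0.543 CPM each, with TMM. No fold was taken from a single library with counts.

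MTF1 (ENSG00000188786; chromosome 1, 37809567 to 37859620, minus strand), the metal-sensing transcription factor, measured 31.4, 26.1 and 25.9 CPM with IL-33, against 30.5, 30.1 and 45.4 CPM in Control. Control 3 was the highest library, while IL-33 1 lay above Controls 1 and 2. Its mean was 27.8 ± 3.14 CPM with IL-33 and 35.3 ± 8.75 CPM in Control (SD, n = 3 each). The log2 fold change was -0.34 ± 0.19 (SE; 95% interval -0.74 to 0.06), and -0.12 without Control 3. This was the lowest p among the members (unadjusted p = 0.0956, and Benjamini-Hochberg adjusted p = 0.999 over all genes, from the quasi-likelihood test of edgeR).

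SLC30A1 (ENSG00000170385; chromosome 1, 211571568 to 211578742, minus strand) was sparsely counted, with 5, 35 and 18 counts with IL-33, against 20, 6 and 0 counts in Control. As levels these were 0.533, 3.42 and 2.12 CPM with IL-33 and 1.99, 0.721 and 0 CPM in Control, where the 0 of Control 3 allows up to 0.543 CPM. The libraries of the groups overlapped, with IL-33 1 below Controls 1 and 2. The log2 fold change of 1.05 ± 0.88 (SE) had a 95% interval from -0.79 to 2.89, and leaving out a library moved it between 0.44, without IL-33 2, and 2.29, without Control 1, with 0.56 without Control 3. That interval holds 0 and values on both sides of it, so the direction for SLC30A1 was not settled by these libraries.

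**Figure D1:**
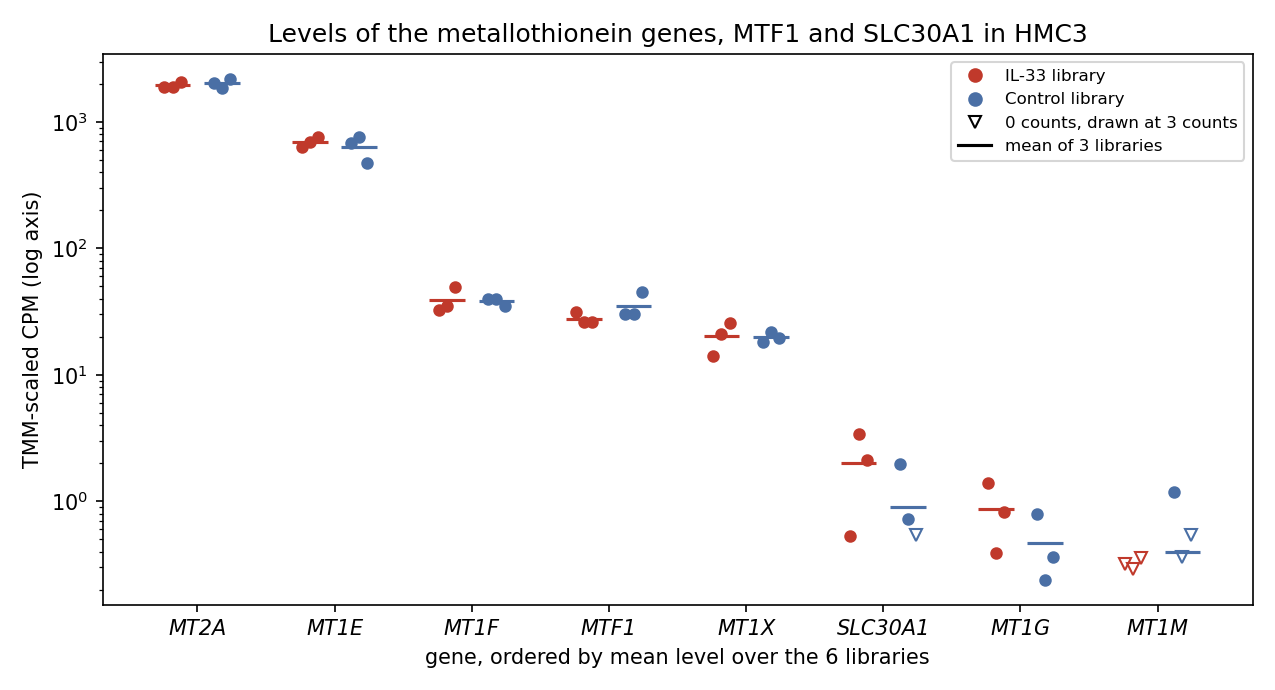
Level of each member in every library, as TMM-scaled CPM on a log axis, for IL-33 (red, left) and Control (blue, right), with a line at the mean of 3 libraries and open triangles at 3 counts for libraries with 0 counts. MT2A lies between 1865 and 2182 CPM in all libraries, MT1M has counts in Control 1 only, and the groups overlap in every gene.

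By mean level over the 6 libraries the order was MT2A, MT1E, MT1F, MTF1, MT1X, SLC30A1, MT1G and MT1M. MT2A lay 3.00-fold above MT1E, and MT1E 17.2-fold above MT1F, with no overlap between the libraries of either pair. MT1F and MTF1, at 38.5 and 31.6 CPM, did not differ beyond their spread, and MT1F was the higher in 5 of 6 libraries. MTF1 lay above MT1X in 6 of 6 libraries, though the lowest MTF1 value of 25.93 CPM and the highest MT1X value of 25.82 CPM nearly met. The libraries of SLC30A1 and MT1G overlapped, as did those of MT1G and MT1M.

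IL-33 was then set against Control in a single fit of all genes, which addressed whether transcripts of the metal-binding system were altered by 24 h of the cytokine. Of the 8 members, 6 passed the filter on low counts and 0 of the 6 changed at an adjusted p of 0.05, where 0% of the 12125 genes tested were called. At an unadjusted p under 0.05 there were also 0 members, against 2.43% of all genes tested, which is 295. DESeq2 called 1 gene and limma-voom 0, with 290 and 329 genes at an unadjusted p under 0.05, and neither called a member. The IL-33 libraries did not lie all above or all below the Control libraries in any of the 8 members, against 4.54% of tested genes with all IL-33 values above and 3.51% with all below. Over the tested members the log2 fold changes had their median at 0.03, with 4 above 0 and 2 below, beside -0.01 over all genes tested. Of all genes tested, 48.9% lay above 0. Without Control 3 the members' median was -0.01, with 3 above 0 and 3 below. These 6 genes passed the filter on their own counts, so the median leaves out MT1G and MT1M. For 5 of the 6, all but SLC30A1, the 95% interval stayed inside -1 to 1 on the log2 scale. The adjusted p was 0.999 by edgeR for each of the 6 members, which does not show that the groups were alike.

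The counts of the 6 metallothionein members were also summed in each library, a measure that does not depend on how reads were split between these 6 genes. Reads that were lost, or assigned to other genes that share stretches with them, would still be missing from the sum. The sum came to 24137, 26941 and 24726 counts with IL-33, against 27913, 22297 and 14993 counts in Control. As levels this was 2572, 2631 and 2915 CPM with IL-33, against 2772, 2681 and 2713 CPM in Control. All 3 Control sums fell between the lowest and the highest IL-33 sum. The mean was 2706 ± 183 CPM with IL-33 and 2722 ± 46.3 CPM in Control (SD, n = 3 each), a difference smaller than the spread within either group. The family thus held 0.272% ± 0.0236 of all counts with IL-33 and 0.271% ± 0.00992 in Control.

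Within that sum, MT2A supplied 73.7%, 71.7% and 71.5% with IL-33, against 73.3%, 69.6% and 80.4% in Control. MT1E supplied 24.5%, 26.1% and 25.9% with IL-33, against 24.6%, 28.1% and 17.5% in Control. MT1F and MT1X together with MT1G and MT1M made up the small remainder. The ratio of MT1E to MT2A counts, which needs no scaling between libraries, was 0.332, 0.365 and 0.361 with IL-33 and 0.335, 0.404 and 0.218 in Control. Control 3 was thus the library with the lowest ratio, and the other 5 lay between 0.332 and 0.404. In the same library MT1E was at 0.664 times, and MTF1 at 1.5 times, the mean of Controls 1 and 2, while MT1X was at 0.973 times and MT2A at 1.12 times. The part of that library's lower depth in these values was not tested.

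**Figure D2:**
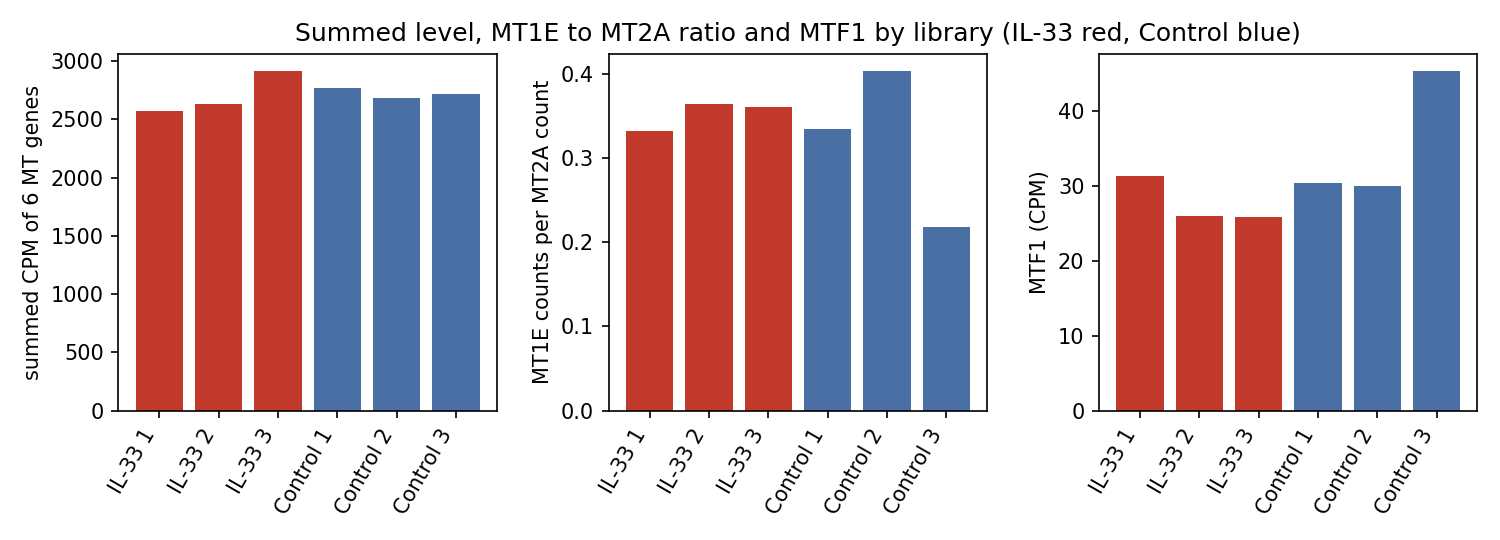
Bars from 0 for each library, IL-33 in red and Control in blue: summed CPM of the 6 metallothionein members (left), counts of MT1E per count of MT2A (middle) and MTF1 in CPM (right). The sum stays between 2572 and 2915 CPM, while Control 3 has the lowest ratio, 0.218, and the highest MTF1, 45.4 CPM.

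The 6 metallothionein members lie in a cluster on chromosome 16 in which GENCODE places 16 metallothionein genes and pseudogenes, and 15 of these have a row in the table. Counts were not spread evenly along it. MT2A and MT1E held the highest levels, and between them lay MT1L (chromosome 16, 56617476 to 56618818), annotated as a transcribed pseudogene. MT1L measured 75.3, 74.1 and 72.5 CPM with IL-33, against 80.8, 89.9 and 69.5 CPM in Control, so it exceeded the coding genes MT1F and MT1X in all 6 libraries. Of its stretches of 75 bases 0% were shared with another gene, and of those of 50 bases 6.37%, all with the pseudogene MT1P3. Its log2 fold change was -0.12 ± 0.13 (SE; adjusted p = 0.999 by edgeR), with -0.02 without Control 2 and -0.21 without Control 3.

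MT3, the growth inhibitory factor of neurons, was counted 29, 30 and 10 times with IL-33 and 11, 27 and 3 times in Control, a log2 fold change of 0.53 ± 0.69 (SE). Leaving out a library moved the value for MT3 between 0.16, without Control 3, and 1.49, without Control 2. MT1A had 15, 0 and 8 counts with IL-33, against 0, 3 and 0 counts in Control. Its pooled level, without TMM, was 0.820 CPM with IL-33 (exact Poisson 95% interval 0.520 to 1.23) and 0.125 CPM in Control (0.0259 to 0.366). These intervals may be too narrow, as for MT1G. The libraries still overlapped, because IL-33 2 was at 0 and Control 2 was not, and MT1A did not pass the filter. MT1JP had 2 counts, all in IL-33 1, and MT4, MT1B, MT1H, MT1DP and MT1IP had 0 counts in all 6 libraries, as had MT1HL1, which lies outside the cluster. A total of 0 allows up to 0.107 CPM over the IL-33 group and 0.125 CPM over the Control group, without TMM. Of the 14 other metallothionein genes and pseudogenes listed, 10 were in the table, 2 were tested (MT1L and MT3) and 0 changed. Their median log2 fold change was 0.21, or -0.02 without Control 3.

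**Figure D3:**
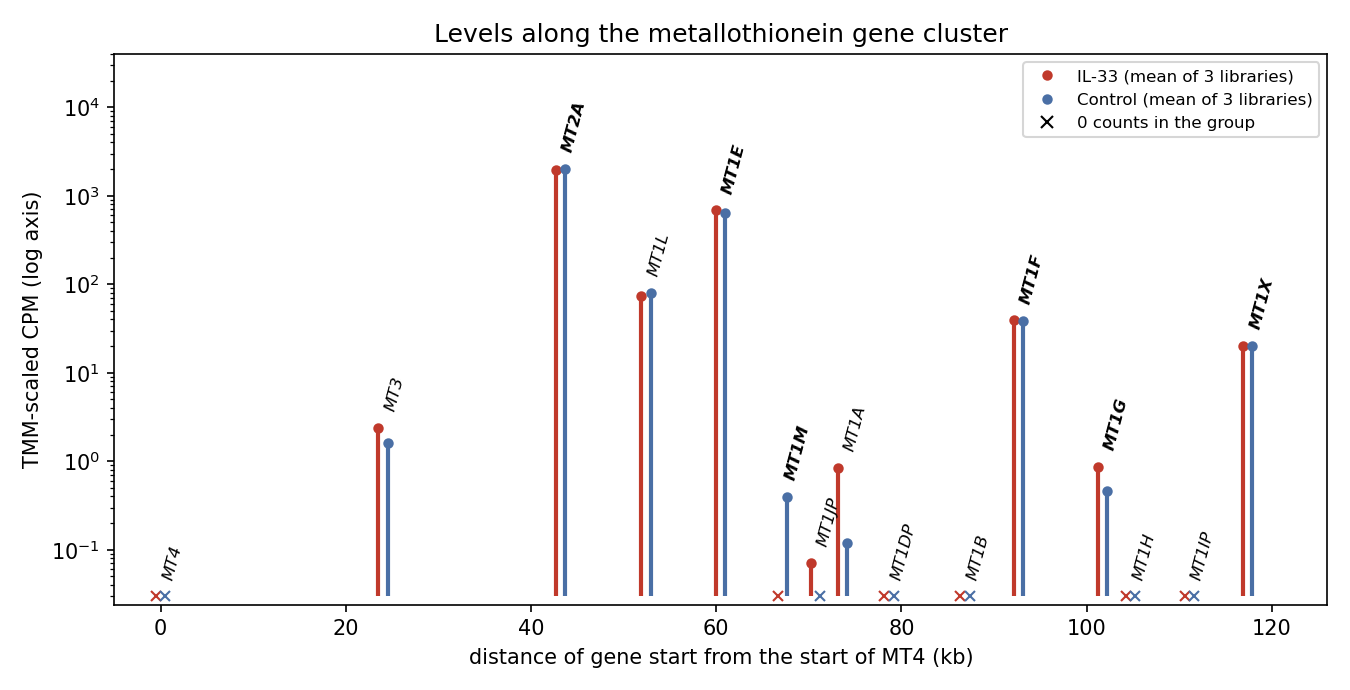
Mean CPM (log axis) with IL-33 (red) and in Control (blue) of the 15 metallothionein genes of the chromosome 16 cluster in the table, against the distance of each gene's start from that of MT4 in kb, with members in bold and crosses for groups with 0 counts. MT2A and MT1E stand highest, with MT1L between them, and genes with 0 counts lie between counted ones.

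The transporters that move zinc were measured beside SLC30A1. The ZnT family holds transporters of which most, though not all, carry zinc out of the cytosol. Of 9 other genes of this family, 6 were tested, 0 changed in either direction and 3 had 0 counts in all libraries. The median log2 fold change was -0.12, with 2 above 0 and 4 below. SLC30A9 averaged 35.7 ± 1.70 CPM with IL-33 and 42.8 ± 6.78 CPM in Control (SD, n = 3 each), a log2 fold change of -0.26 ± 0.16 (SE), and -0.13 without Control 2. SLC30A7, a transporter of the secretory pathway, had -0.17 ± 0.20, with -0.07 without Control 1 and -0.34 without Control 3. SLC30A6 had 0.03 ± 0.28, and -0.15 without Control 3. Each of these 3 was more abundant than SLC30A1, which averaged 1.46 CPM over the 6 libraries. Without Control 3 the ZnT median was -0.29, with 1 of 6 above 0, beside a median of 0.00 over all genes in that fit.

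Of 14 genes of the ZIP family, which bring zinc into the cytosol, 9 were tested and 0 changed, with 6 above 0, 3 below and a median log2 fold change of 0.05, or 0.03 with the same split without Control 3. All 9 intervals lay within -1 to 1. SLC39A7, which releases zinc from the endoplasmic reticulum and Golgi, averaged 287 ± 17.8 CPM with IL-33 and 290 ± 19.3 CPM in Control (SD, n = 3 each), a log2 fold change of -0.01 ± 0.10 (SE), and 0.04 without Control 3. SLC39A13 measured 96.2, 102 and 102 CPM with IL-33, against 93.9, 89.0 and 89.6 CPM in Control. Its IL-33 values lay all above its Control values, as did those of 4.54% of all tested genes, and its log2 fold change was 0.14 ± 0.11 (SE; adjusted p = 0.999 by edgeR). SLC39A6 had -0.14 ± 0.12.

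Copper handling genes gave the same count. Of 13 listed, 12 were tested, 0 changed, 6 lay above 0 and 6 below, and the median log2 fold change was 0.04, or -0.05 with 4 of 12 above 0 without Control 3. SOD1, the copper and zinc superoxide dismutase, averaged 271 ± 9.93 CPM with IL-33 and 274 ± 12.7 CPM in Control (SD, n = 3 each), with a log2 fold change of -0.02 ± 0.09 (SE), and -0.04 without Control 3. ATOX1, a copper chaperone for the secretory pathway, had -0.17 ± 0.13, and -0.09 without Control 3. COX17, a copper chaperone of mitochondria, measured 88.7, 85.1 and 72.9 CPM with IL-33, against 70.7, 82.4 and 44.7 CPM in Control, a log2 fold change of 0.31 ± 0.18 and 0.10 without Control 3.

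Genes that cells raise under heavy metals and oxidants were tested in 12 of 13 cases, and 0 changed. Of the 12, 2 had a log2 fold change above 0 and 10 below, with a median of -0.15 and a range from -1.06 to 0.39. Over all genes tested, 48.9% lay above 0 and the median was -0.01. The 2 above 0 were HSPA1A and HSPA1B, so the oxidant genes of the list, NQO1 among them, lay below 0. Without Control 3 the split was 5 above and 7 below with a median of -0.17. The 3 most abundant genes of the list, given next, are all chaperone or cochaperone genes. DNAJB1, a cochaperone, had -0.02 ± 0.14 (SE), HSPH1, a large heat shock protein, -0.08 ± 0.12 and HSPA1A, an inducible chaperone whose reads can be shared with the near-identical HSPA1B, 0.07 ± 0.11. Without Control 3 these were 0.20 for DNAJB1, 0.0095 for HSPH1 and 0.02 for HSPA1A.

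Genes that belong to the other routes known to raise metallothionein transcripts, or that respond to those routes, were counted as well. Of 10 glucocorticoid-responsive genes, 9 were tested and 0 changed, with 2 above 0, 7 below and a median log2 fold change of -0.05. Without Control 3 the median of this list was -0.10, with 3 above 0 and 6 below. NR3C1, the glucocorticoid receptor, stood at 167 ± 14.8 CPM with IL-33 and 162 ± 4.78 CPM in Control (SD, n = 3 each), a log2 fold change of 0.04 ± 0.10 (SE). FKBP5, a cochaperone of that receptor, had -0.05 ± 0.15 and the phosphatase gene DUSP1 -0.10 ± 0.15. Without Control 3 these were 0.02 for NR3C1, -0.22 for FKBP5 and -0.18 for DUSP1. Of 10 STAT3-responsive genes, all 10 were tested and 0 changed, with 5 above 0, 5 below and a median of 0.01, or -0.11 with 4 above 0 and 6 below without Control 3. STAT3 itself had -0.15 ± 0.13, CEBPB, a factor of the acute phase response, 0.26 ± 0.14, and IL6ST, the shared receptor chain of the interleukin-6 family, -0.10 ± 0.14. Without Control 3, STAT3 had 0.03 and CEBPB 0.12.

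**Figure D4:**
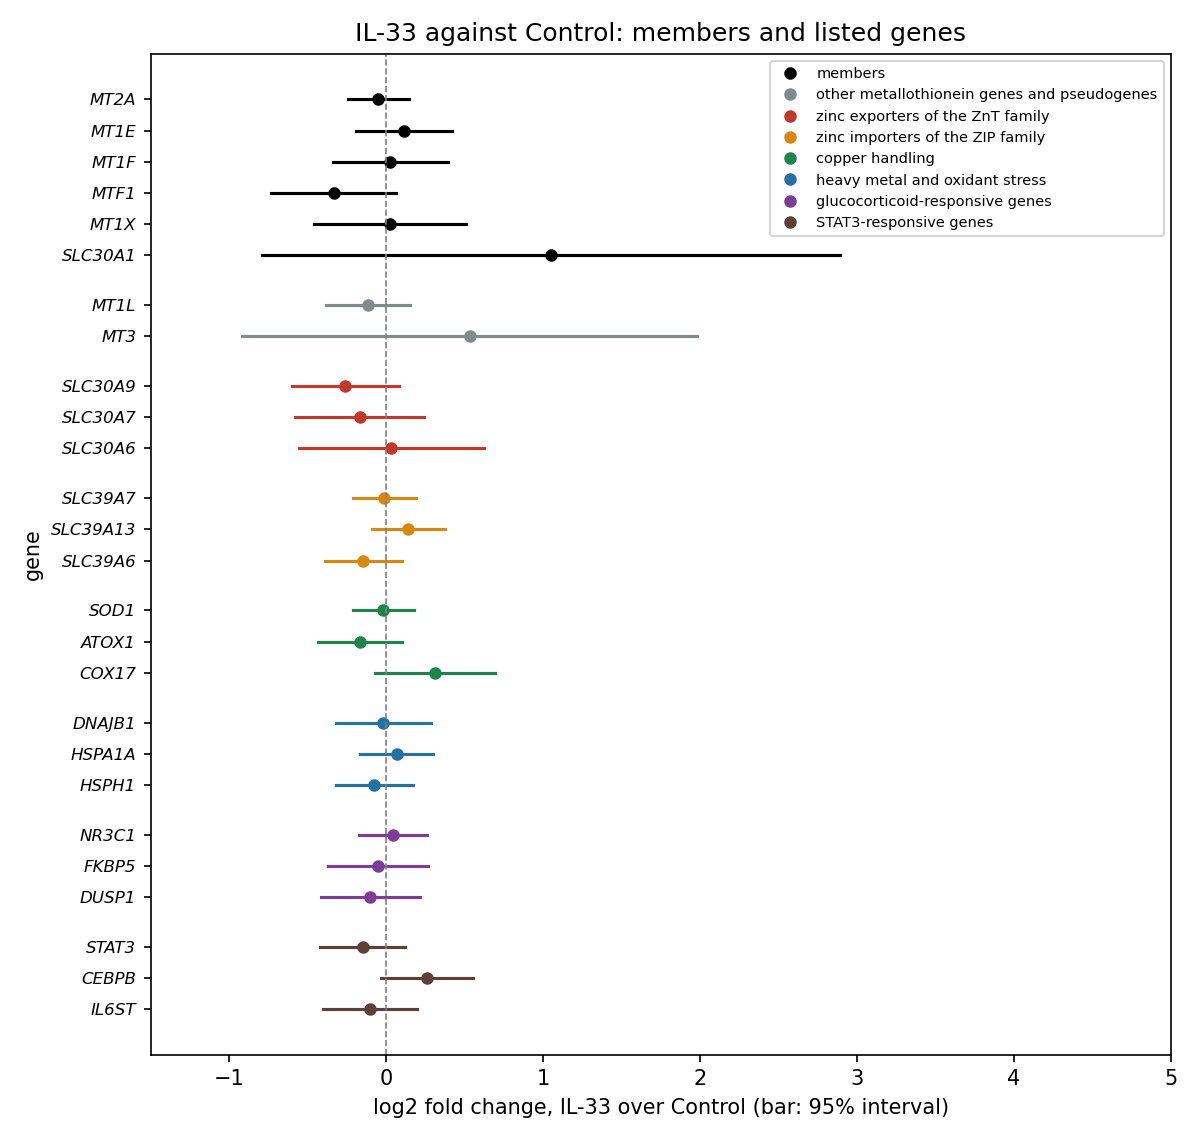
Log2 fold change of IL-33 over Control (points) with its 95% interval (bars) for the 6 tested members and for the most abundant tested genes of each list, up to 3 a list. All intervals shown include 0, and those of SLC30A1 (-0.79 to 2.89) and MT3 are the widest.

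As a description, it was asked how the members varied together on the log2 CPM scale over the 6 libraries. These libraries differed in depth, Control 3 stood apart, and the part of such differences in the values of r was not tested. Pearson's r was 0.78 between MT1F and MT1X, 0.58 between MT1E and MT1F and 0.25 between MT1X and MT2A. It was 0.39 between MT1E and MT1X and -0.58 between MT1E and MT2A. The value for MT1F and MT2A was 0.31. Without Control 3 all 6 pairs of MT2A, MT1E, MT1F and MT1X had a positive r, of 0.27 for MT1E and MT2A, 0.79 for MT1F and MT2A, 0.38 for MT1X and MT2A, 0.80 for MT1E and MT1F, 0.93 for MT1E and MT1X and 0.81 for MT1F and MT1X. MTF1 and MT1E had r of -0.92 over 6 libraries and -0.49 without Control 3. In the same order, MTF1 had -0.46 and -0.49 with MT1F, and -0.33 and -0.76 with MT1X. With MT2A it had 0.57 and -0.32, and with the sparsely counted SLC30A1 -0.93 and -0.79. The 5 genes at 10 CPM or more whose pattern was most like that of MT2A, out of 8330 compared, included TSC22D2 (r of 0.996), ORAI1 (0.99), NAXE (0.98) and INPP1 (0.98). They were picked as the highest of 8330 values over 6 libraries, so a high r follows from the pick, and shared control was not tested. By the same r, MT1F ranked 2621, MT1X 2965 and MT1E 7070.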

How the data were processed

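Unnormalized counts, 1 row a gene symbol and 1 column for each of 6 libraries, were deposited by the authors. TRIZOL was used for the RNA and Lexogen's QuantSeq 3' FWD kit for the libraries, per the labels' protocols. STAR 2.7.5a, HTSeq 0.6.1, edgeR and hg38 are named, without roles, per the submitters' processing notes. The sources used here name no annotation, strand setting or rule for multi-mapped reads. Of 27470 rows, 1 held no values. Counts were filtered (filterByExpr, count minimum 10, total minimum 15), leaving 12125 genes with 99.85% of counts, scaled by TMM and tested with edgeR 4.0.16 in R 4.3.3 (quasi-likelihood, robust, group alone, Benjamini-Hochberg at 0.05). The procedure was tested on simulated counts. Alternatives were no filter, DESeq2 1.42.0, its size factors alone, no scaling beyond library size, limma-voom (limma 3.58.1), a replicate block and each library left out. Replicate pairs had a chi-square per degree of freedom of 5.56 to 15.85 and none were merged. Positions are from GENCODE release 29 (GRCh38).

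The members and lists were chosen with earlier results of these data known. All members are named, with the 3 most abundant tested genes of each list and the 5 genes most like MT2A, of which 1 is not reported here. MT1A, MT1JP and the silent family members, NQO1 and the lists without Control 3 were added after values were seen. Figures were drawn with matplotlib 3.10.9.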

Additional observations from a re-analysis of the deposited data

How the results depend on the processing

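Under 12 alternatives, 0 members changed in any fit. The count of changed genes over all genes was 0 in the test as reported, 3 with no low-count filter and 1 with DESeq2 (KIRREL3-AS2), and 0 to 6 with a library left out, the 6 arising without Control 3; none of these were members. The replicate numbers were not shown to pair the libraries: deviations of same-numbered libraries correlated at -0.09, 0.03 and -0.14, and with the replicate block 0 genes changed and MT1X had a log2 fold change of -0.017. Directions of values near 0 were not stable. With limma-voom MT1F had -0.0163, MT1X -0.0191 and DNAJB1 0.0333, and with the replicate block DNAJB1 had 0.0043. With a library left out, the log2 fold changes ran from -0.0557 to 0.26 for MT1E, -0.17 to 0.14 for MT1F, -0.19 to 0.23 for MT1X, -0.11 to 0.0045 for MT2A, -0.15 to 0.43 for SLC30A6, -0.054 to 0.0409 for SLC39A7, -0.0434 to 0.0214 for SOD1, -0.15 to 0.20 for DNAJB1, -0.16 to 0.0095 for HSPH1, -0.0215 to 0.11 for NR3C1, -0.22 to 0.0501 for FKBP5, -0.23 to 0.0259 for STAT3, -0.26 to 0.0155 for IL6ST, -0.21 to 0.0245 for TSC22D2, -0.19 to 0.0172 for NAXE and -0.35 to 0.0967 for INPP1. MTF1 (-0.44 to -0.12) and SLC30A1 (0.44 to 2.29) kept their direction with each library left out. Summed CPM with library size alone ran from 2529 to 2981 with IL-33 and from 2612 to 2810 in Control. SLC30A1, MT1G, MT1M, MT1A and MT3 had 35 or fewer counts in each library, so their values are uncertain. Their counts also differed between libraries of the same group, and the part of depth in this was not tested.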

Other observations

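NQO1, a quinone reductase that oxidants induce, was the sole listed gene at an unadjusted p under 0.05 and was named after its values were seen. Of all genes tested by edgeR, 2.43% had an unadjusted p under 0.05, so a gene with such a p in lists of this size is not remarkable. It measured 10.9, 16.4 and 11.8 CPM with IL-33, against 26.4, 17.1 and 16.3 CPM in Control, so the groups overlapped. Its log2 fold change was -0.62 ± 0.25 (SE; unadjusted p = 0.0236, adjusted p = 0.999 by edgeR). Leaving out a library moved it between -0.82, without IL-33 2, and -0.36, without Control 1.

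The ratio of MT1L to MT1E counts was 0.120, 0.108 and 0.0962 with IL-33, against 0.119, 0.119 and 0.146 in Control. The ratio of MT1L to MT2A was 0.0398, 0.0393 and 0.0348 with IL-33, against 0.0398, 0.0482 and 0.0318 in Control. Control 3 had the highest ratio of MT1L to MT1E and the lowest of MT1L to MT2A.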
